A study of Mus musculus with 2 samples.

Results

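The genes described here are 9 transcripts of basophils and mast cells, *Mcpt8*, *Gata2*, *Il3ra*, *Cpa3*, *Ms4a2*, *Fcer1a*, *Il4*, *Il6*, and *Cd200r3*, and they were measured in kidney cells of mice with nephrotoxic nephritis (NTN) by droplet-based scRNA sequencing. The genes were taken from a given list, all 9 were among the 20299 features of the deposited table, and their transcripts were counted in the 27 cells that the authors named Basophil and in the other 7287 cells. The design had 2 libraries, 1 of WT mice and 1 of *Vsir-/-* mice, which lack VISTA, an inhibitory checkpoint molecule of the immune system. All mice were C57BL/6 and 8 weeks old, and all received 200 μg of sheep IgG with complete Freund's adjuvant by the intraperitoneal route and, 4 days later, sheep serum against the glomerulus (2 μL per g of body weight in the sample labels, whereas the methods of the study give a higher dose) by vein. The kidneys were digested with liberase at 37°C for 30 minutes. By the labels, CD45+ sorting was done for the WT library, and kidney cells of any kind entered the *Vsir-/-* library, whereas the methods of the study describe a CD45+ sort. The genotype therefore cannot be told apart from the library or from this difference in the labels, no test between genotypes was made, and every interval given covers counting error only.

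Basophils are rare granulocytes of the blood that enter inflamed tissue, and mast cells are their long-lived counterparts in tissue. Both carry the high-affinity receptor for IgE, FcεRI, in which the α chain (*Fcer1a*) binds IgE and the β chain (*Ms4a2*) amplifies the signal, and crosslinking of the bound IgE releases granules, lipid mediators, and cytokines. IL-3, which signals through a receptor whose α chain is encoded by *Il3ra*, drives the growth and survival of mouse basophils, and the transcription factor GATA2 is required for both lineages.

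The WT library held 5470 cells and 32799550 unique molecular identifiers (UMIs, counts of single captured transcripts), and the *Vsir-/-* library held 1844 cells and 18601189 UMIs. The cluster named Basophil contained 25 WT cells, or 0.457% of that library (95% Clopper-Pearson interval 0.296% to 0.674%), and 2 *Vsir-/-* cells, or 0.108% (0.0131% to 0.391%), and the intervals of these shares overlapped. With cells counted by their transcripts in place of the cluster name, which adds 10 WT cells, the intervals did not overlap. Among cells with a UMI of *Ptprc*, which encodes CD45, the shares were 0.349% in the WT library (0.207% to 0.551%) and 0.147% in the *Vsir-/-* library (0.0178% to 0.531%), and the intervals overlapped. The shares by transcripts are given at the end. The WT Basophil cells held 1596 to 15764 UMIs each (median, 5061), and the *Vsir-/-* Basophil cells held 3747 and 6168. Levels are given as CPM, the UMIs of a gene per 1000000 UMIs of the same cells. The 3′ protocol counts transcripts, so levels were not divided by transcript length. They are compared between cells for the same gene and not between genes. The libraries shared 5 cell barcodes, and none of them was in a Basophil cell. *Vsir* itself had 21 UMIs in the WT Basophil cells and 0 in the *Vsir-/-* Basophil cells, and it had 4278 and 8 UMIs in the whole libraries.

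The authors named the cluster from expression in these same cells, with *Mcpt8*, *Ier3*, *Gata2*, and *Il3ra* as the naming genes. Its transcripts are therefore described here and lend no support to its name. Each of the 27 cells held UMIs of at least 3 of 5 members (*Mcpt8*, *Cpa3*, *Ms4a2*, *Fcer1a*, and *Cd200r3*, called core transcripts below), 23 cells held at least 4, and 18 held all 5. Of 8 listed markers of mast cells, 4 were among the features, and these were not detected in the cluster. *Kit*, the stem cell factor receptor, *Cma1* and *Mcpt4*, which encode chymases, and *Tpsb2*, which encodes a tryptase, had 0 UMIs in the 27 cells, which allows up to 19.3 CPM each. Elsewhere, *Kit* had 262 UMIs and was highest in group 2 innate lymphoid cells (ILC2; 61.9 CPM), and 84.4% of the 2302 *Cma1* UMIs were in NK cells (456 CPM). *Mcpt4* had 4 UMIs and *Tpsb2* had 5 UMIs in the whole data set. No cluster was named for mast cells by the authors, and the values below describe the genes in basophils. Among other lineages, at least 1 UMI of 6 neutrophil markers was found in 25 of the 27 cells (at most 11 per cell), of 6 T cell markers in 5 cells (at most 30), of 6 macrophage markers in 5 cells (at most 10, with *C1qa*, *C1qb*, and *C1qc* at 0), of NK cell markers in 8 cells (at most 16), of B cell markers in 6 cells (at most 1), of tubule markers in 2 cells (6 in each, both of them the *Vsir-/-* cells), and of eosinophil markers in 8 cells (at most 4). The neutrophil marker *Ly6g*, the B cell marker *Ms4a1*, the eosinophil marker *Prg2*, and the tubule markers *Slc34a1*, *Lrp2*, and *Slc12a1* had 0 UMIs. Of the 84 neutrophil marker UMIs, 42 were of *Cxcr2*, a chemokine receptor gene found in 19 of the 27 cells. *Ptprc*, which encodes CD45, was found in 20 of the 27 cells. *Lyz2*, a lysozyme gene of myeloid cells, was found in 5 cells and reached 253 UMIs in 1 of them. The part of such transcripts in the results was not tested.

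The stretches before the start sites of 4 core transcripts are shown because each holds a word bound by GATA factors. They are the 250 bases before the start site in RefSeq (GRCm38.p6), written 5′ to 3′ on the strand of the gene, with the word AGATAA or its variant TGATAA on either strand in capitals. The stretches lie at chr1:173227230-173227479, minus strand, for *Fcer1a*, at chr19:11623720-11623969, minus strand, for *Ms4a2*, at chr3:20242182-20242431, minus strand, for *Cpa3*, and at chr16:44943428-44943677, plus strand, for *Cd200r3*.
Fcer1a: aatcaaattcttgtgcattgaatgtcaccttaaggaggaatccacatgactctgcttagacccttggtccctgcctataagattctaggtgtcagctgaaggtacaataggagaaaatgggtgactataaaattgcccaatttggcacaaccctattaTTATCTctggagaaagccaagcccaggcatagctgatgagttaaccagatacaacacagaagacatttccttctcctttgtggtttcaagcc
Ms4a2: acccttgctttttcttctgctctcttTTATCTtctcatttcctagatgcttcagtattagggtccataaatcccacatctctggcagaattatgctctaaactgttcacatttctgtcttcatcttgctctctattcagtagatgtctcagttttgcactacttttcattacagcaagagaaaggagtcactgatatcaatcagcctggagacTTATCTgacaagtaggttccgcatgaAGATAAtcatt
Cpa3: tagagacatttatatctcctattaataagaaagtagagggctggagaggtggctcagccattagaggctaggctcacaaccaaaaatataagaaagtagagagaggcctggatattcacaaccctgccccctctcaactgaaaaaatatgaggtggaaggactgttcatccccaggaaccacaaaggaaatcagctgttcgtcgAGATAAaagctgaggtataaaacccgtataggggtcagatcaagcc
Cd200r3: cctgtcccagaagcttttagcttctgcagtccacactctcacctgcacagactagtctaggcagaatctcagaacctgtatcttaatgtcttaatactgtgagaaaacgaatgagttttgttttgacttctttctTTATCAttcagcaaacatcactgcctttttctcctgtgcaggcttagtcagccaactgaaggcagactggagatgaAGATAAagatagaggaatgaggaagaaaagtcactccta
The first base of the word lay 92 bases before the start site in *Fcer1a*, 46 bases before it in *Cpa3*, 115 and 39 bases before it in *Cd200r3*, and 224, 37, and 11 bases before it in *Ms4a2*. With windows that also took in the 50 bases after the start, the word was found in 6 of the 9 genes, the others being *Il4* (15 bases after the start of the second of its start sites) and *Il6* (55 bases before the start). It was not found in the windows of *Mcpt8*, *Gata2*, and *Il3ra*. Among all 27025 genes with such a window, 21.0% held the word, and 3.26% of the 32851 windows held it more than once. TGTGGT, the word of RUNX factors, was found on either strand in 3 of the 9 genes and in 18.9% of all genes. A match of letters is a description of the sequence and not evidence of binding.

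The transcripts of both FcεRI chains were concentrated in the Basophil cells. In the 25 WT cells, *Fcer1a* ranged from 0 to 10 UMIs (median, 3) and was found in 24 cells, and *Ms4a2* ranged from 0 to 9 UMIs (median, 3) and was found in 23 cells. The sums were 87 UMIs or 598 CPM (95% Poisson interval 479 to 738) for *Fcer1a*, compared with 0.857 CPM in all other WT cells, a ratio of 698. For *Ms4a2* they were 95 UMIs or 653 CPM (528 to 799), compared with 1.10 CPM, a ratio of 592. The Basophil cells, which were 0.457% of the WT cells, held 75.7% of the *Fcer1a* UMIs and 72.5% of the *Ms4a2* UMIs of that library. The next clusters for *Fcer1a* were plasmacytoid dendritic cells (pDCs; 7.56 CPM), R1 macrophages (7.195 CPM), and other R2 macrophages (6.24 CPM), whose intervals overlapped. Both FcεRI chains were therefore low in every other cluster, and most of what remained was in the few cells described below. Those cells were chosen by core transcripts, both chains among them, so this follows in part from the choice.

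In the 2 *Vsir-/-* Basophil cells, *Ms4a2* was detected and *Fcer1a* was not. *Ms4a2* had 1 and 7 UMIs in them, 807 CPM (348 to 1590), and this level did not differ from the WT level beyond counting error (ratio, 1.24; 95% interval 0.518 to 2.53). *Fcer1a* had 0 UMIs in both cells and 0 UMIs in the entire *Vsir-/-* library. With a count of 0 taken to allow 3 counts, its level was at least 1.98-fold lower than in the WT Basophil cells, and the 2-sided 95% interval of the ratio, which is a wider limit, reached up to 0.635. Of the 15 *Ms4a2* UMIs in other *Vsir-/-* cells, 14 were in 4 proliferating cells of 28734 to 145955 UMIs each, in which no T cell transcript was found.

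The remaining surface receptors followed different patterns. *Cd200r3*, which encodes an activating receptor of the CD200 receptor family found on basophils and mast cells, had 0 to 17 UMIs per WT Basophil cell (median, 5) and was found in 24 of 25 cells. It reached 928 CPM (778 to 1099) in these cells and 2.79 CPM in the others, a ratio of 333, and 59.7% of its WT UMIs were in the cluster. Of its other WT UMIs, the non-EM-like CD4+ T cell cluster, where EM means effector memory, held the most. There, 26 of 895 cells held 33 UMIs (7.41 CPM; 5.10 to 10.4), at most 4 per cell, and none of the 26 cells held another core transcript. No *Cd200r3* UMI was found in the 349 *Vsir-/-* cells of that cluster, nor in the 116 of them with a T cell transcript, where the upper limit of the interval was 3.03 CPM.

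*Il3ra* was the least restricted of the 9 genes, with the smallest share of its WT UMIs in the cluster. It had 0 to 3 UMIs per WT Basophil cell (median, 0) and was found in 9 of 25 cells. The sum of 14 UMIs gave 96.3 CPM (52.6 to 162), compared with 14.7 CPM in all other WT cells, a ratio of 6.54 (3.55 to 11.1). The Basophil cells held 2.83% of the *Il3ra* UMIs of the WT library. M2-like R2 macrophages came next (42.6 CPM), followed by pDCs (37.8 CPM) and proliferating cells (26.9 CPM), and the gene was detected in every cluster. In the *Vsir-/-* library, the single UMI in the Basophil cells (100.9 CPM; 2.55 to 562) could not be distinguished from the 49.3 CPM of R1 macrophages.

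The proteases were next. *Mcpt8* encodes mast cell protease 8, a granule serine protease that in mice marks basophils despite its name. It had 0 to 62 UMIs per WT Basophil cell (median, 7) and was found in 23 of 25 cells, and the *Vsir-/-* cells had 33 and 123 UMIs. The WT sum was 361 UMIs or 2482 CPM (2233 to 2752), compared with 2.24 CPM in all other WT cells, a ratio of 1110 (861 to 1448). The cluster held 83.2% of the *Mcpt8* UMIs of the WT library and 156 of the 157 *Mcpt8* UMIs of the *Vsir-/-* library. The single UMI outside it in the *Vsir-/-* library was in a proliferating cell. Among the 15 other clusters of the WT library, other R2 macrophages (14.8 CPM) and M2-like R2 macrophages (9.79 CPM) followed. These levels came mostly from the few cells described below, which held 18 of the 19 *Mcpt8* UMIs of other R2 macrophages and 34 of the 43 of M2-like R2 macrophages, and the remaining cells of these clusters were at 0.826 CPM and 2.08 CPM. Those few cells were chosen by core transcripts, *Mcpt8* among them, so the low level of the remaining cells follows in part from the choice.

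*Cpa3* encodes carboxypeptidase A3, a granule metalloprotease. It had 0 to 15 UMIs per WT Basophil cell (median, 2), was found in 21 of 25 cells, and reached 674 CPM (547 to 821), compared with 1.29 CPM in all other WT cells. Unlike *Mcpt8*, it had a second cluster of its own. ILC2 had 17 UMIs in 14 of 79 WT cells (42.1 CPM) and 6 UMIs in 3 of 19 *Vsir-/-* cells (41.3 CPM), at most 4 UMIs per cell, and none of these ILC2 held another core transcript. The WT ILC2 level was 15.99-fold lower than that of Basophil cells, and its interval lay above that of the next cluster.

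*Gata2* was found in 24 of the 25 WT Basophil cells, at 0 to 16 UMIs (median, 6), and in both *Vsir-/-* Basophil cells, at 2 and 14 UMIs. In the WT library it was close to restricted to these cells, with 1086 CPM (924 to 1270) compared with 1.56 CPM in all other cells, and 75.6% of its UMIs were in the cluster. In the *Vsir-/-* library it was not. Only 3.75% of its 427 UMIs were in the Basophil cells, and the other cells of that library had 22.1 CPM (20.02 to 24.4). The non-EM-like CD4+ T cell cluster held 211 of these UMIs in 58 cells (45.9 CPM), and the proliferating cells held 143 in 50 cells (32.2 CPM). In the non-EM-like CD4+ T cell cluster of the *Vsir-/-* library, 233 of 349 cells had no T cell transcript, and *Gata2* was at 44.4 CPM (37.6 to 52.1) in these and at 50.04 CPM (38.3 to 64.3) in the others. The *Gata2*-positive cells of this cluster were deep, with a median of 25642 UMIs. Cells with at least 1000 UMIs were thinned to 1000 UMIs, which left out 78 of the other *Vsir-/-* cells and 167 of the other WT cells. After this, *Gata2* was found in 1.08% of the other *Vsir-/-* cells (8.14% before thinning). It was found in 0.114% of the other WT cells (0.275% before thinning). The part of the sort and of cell depth in this difference between libraries was not tested.

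Of the cytokine genes, *Il4* was shared with lymphocytes. *Il4*, the cytokine that drives type 2 helper T cells and IgE, had 0 to 8 UMIs per WT Basophil cell (median, 1), was found in 15 of 25 cells, and reached 213 CPM (145 to 303), compared with 2.05 CPM in the other WT cells, a ratio of 104 (65.6 to 161). The cluster held 31.6% of the *Il4* UMIs of the WT library. ILC2 came next, with 20 UMIs in 11 of 79 WT cells (49.6 CPM), followed by EM-like CD4+ T cells, with 20 UMIs in 15 of 489 WT cells (7.14 CPM) and 24 UMIs in 17 of 244 *Vsir-/-* cells (15.2 CPM). In the *Vsir-/-* Basophil cells, *Il4* had 1 and 3 UMIs, 403 CPM (110 to 1033), which did not differ from the WT level beyond counting error. Per cell of the cluster, *Il4* was thus high relative to T cells, although 67 of its 98 WT UMIs lay outside the cluster.

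*Il6*, which encodes an inflammatory cytokine of many cell types, was in these data mostly a transcript of WT Basophil cells, with 124 of the 175 UMIs of the WT library (70.9%). It was found in 20 of 25 cells and was uneven, with 0 to 37 UMIs (median, 2). The level was 853 CPM (709 to 1017), compared with 1.56 CPM in the other WT cells, and 29.8% of the WT Basophil UMIs came from a single cell. pDCs (15.1 CPM) and other R2 macrophages (13.3 CPM) followed, but all 4 and 17 of their *Il6* UMIs were in 1 and 3 of the cells described below. M2-like R2 macrophages held 20 WT *Il6* UMIs, and 16 of them were outside those cells (3.70 CPM, interval 2.12 to 6.01). ILC2 had 3 *Il6* UMIs in 3 of 79 WT cells (7.43 CPM). In the *Vsir-/-* Basophil cells, 1 UMI was found.

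**Figure D1:**
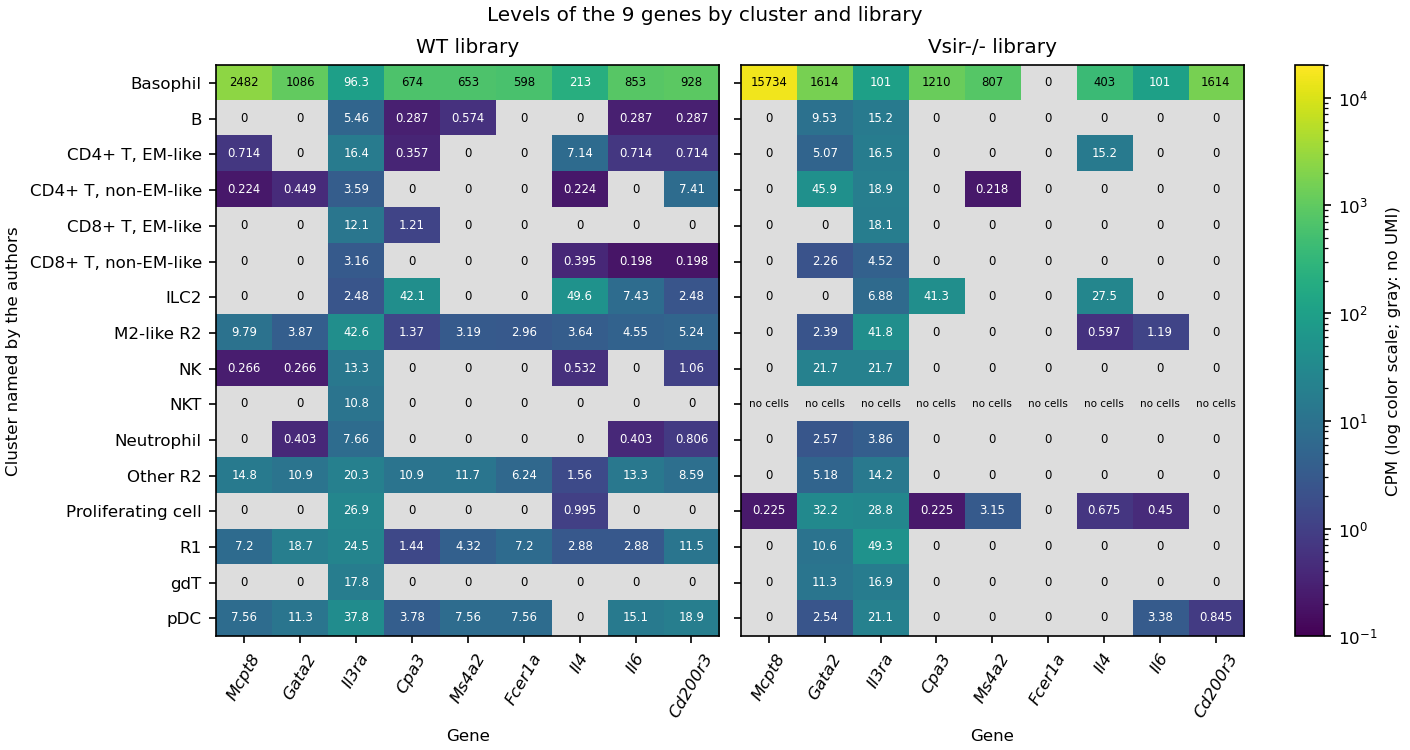
Levels of the 9 genes in CPM (numbers and logarithmic color scale) for each cluster named by the authors, in the WT library (left) and the *Vsir-/-* library (right), with gray for no UMI. The Basophil row is the highest for each gene in the WT library, *Cpa3* and *Il4* recur in ILC2, *Il3ra* is found in every cluster, and *Gata2* is found in more clusters of the *Vsir-/-* library than of the WT library.

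The members were compared with all features as a background. Among the 1140 features with at least 20 UMIs in the Basophil cells of both libraries, 13.4% were at least 4-fold higher in these cells than in all other cells, and the median log2 ratio was 0.44. The 8 members that passed this filter, all except *Il3ra* (15 UMIs), were at least 4-fold higher. The authors named the cluster from expression in the same cells, and members high in the cluster are those that can pass the filter, so nothing was read from this count. Together, the 9 genes had 1317 UMIs in the 27 Basophil cells, or 41.6% of their 3169 UMIs, and 8478 CPM (8026 to 8948), compared with 36.1 CPM elsewhere. The share was 54.5% in the WT library and 18.7% in the *Vsir-/-* library, in which *Gata2* (427 UMIs) and *Il3ra* (458 UMIs) made up most of the 1146 UMIs.

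Detection in single cells was set against that in B cells. Of the WT Basophil cells (median depth, 5061 UMIs), 92% had an *Mcpt8* UMI (74.0% to 99.0%), and 56% had one after thinning to 1000 UMIs. The shares after thinning were 72% for *Gata2*, 60% for *Cpa3*, 56% for *Cd200r3*, 52% for *Ms4a2*, 48% for *Fcer1a*, 40% for *Il6*, 32% for *Il4*, and 20% for *Il3ra*, from 25 cells each. Among the 969 WT B cells (median depth, 3426 UMIs), *Mcpt8* was found in 0 cells, which allows up to 0.310% of cells with a UMI at this depth, and no member other than *Il3ra* (1.96%, and 0.528% after thinning) was found in more than 0.206% of cells. In the 88 *Vsir-/-* B cells (median depth, 3597 UMIs), *Gata2* was found in 3.41% (1.39% after thinning) and *Il3ra* in 6.82% (0% after thinning). No other member was found. The shares after thinning are of the 72 of these cells with at least 1000 UMIs, and the 0% has an upper limit of 4.99%.

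The Basophil cells varied among themselves. The variance of the UMIs over the WT cells was set against that expected from counting at the depth of each cell, where 1 stands for counting alone. This ratio was 13.5 for *Il6* and 11.0 for *Mcpt8*, between 2.25 and 4.49 for *Fcer1a*, *Ms4a2*, *Gata2*, *Cpa3*, and *Cd200r3*, 1.93 for *Il4*, and 1.27 for *Il3ra*. At the same relative variation the ratio rises with the mean count of a gene. It therefore does not rank genes of unlike counts by their variation between cells. A further protease gene, *Prss34*, which encodes a serine protease of basophils and was no member, was found in fewer of these cells than any member. It had UMIs in 8 of the 27 cells, and the 6 highest cells held 99.5% of its 386 UMIs. *Prss34* had 237 UMIs in the *Vsir-/-* cell with 123 *Mcpt8* UMIs and 0 UMIs in the *Vsir-/-* cell with 33.

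**Figure D2:**
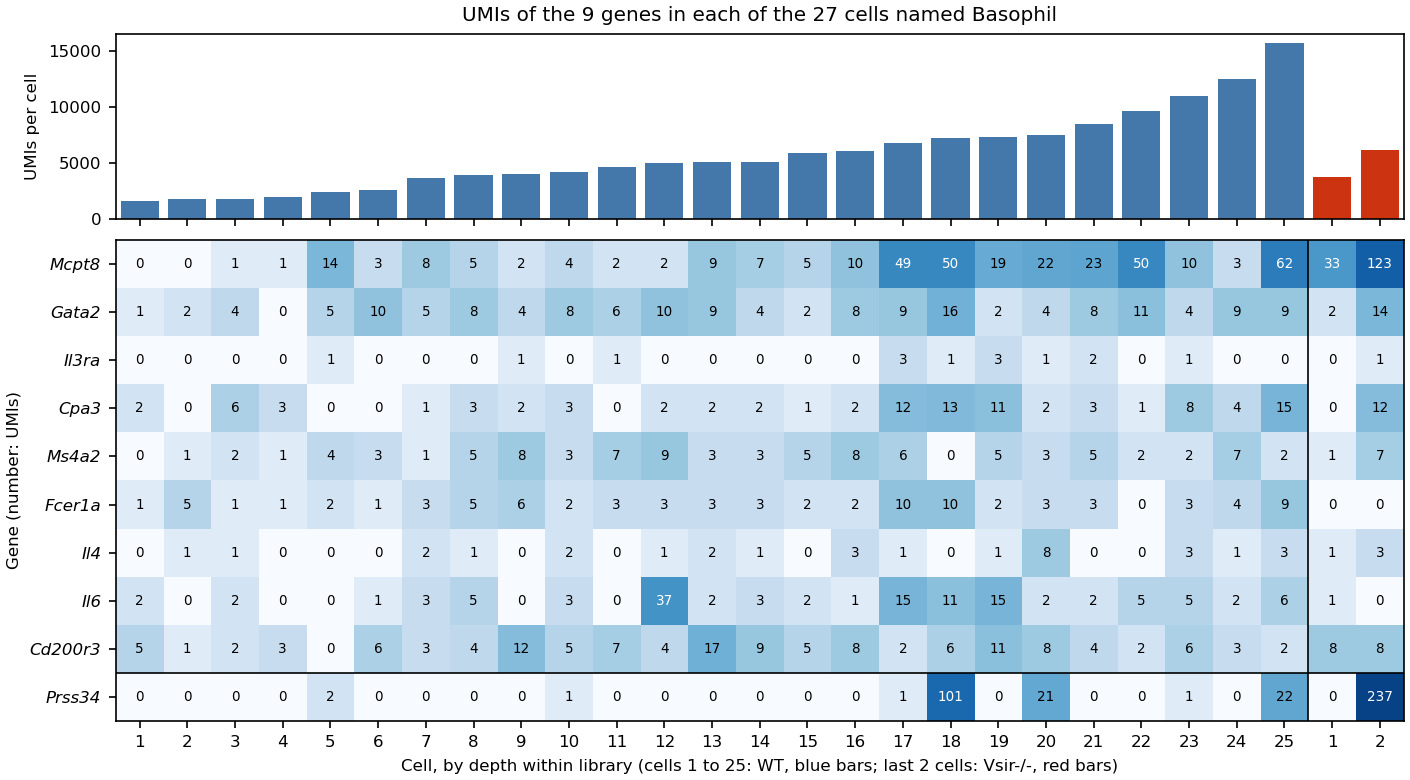
UMIs of the 9 genes and *Prss34* in each of the 27 Basophil cells, ordered by depth within the library (top: UMIs per cell; WT in blue, *Vsir-/-* in red; the color scale follows the logarithm of the UMIs printed in each field). *Gata2* and *Cd200r3* are spread over nearly all cells, *Mcpt8* and *Prss34* are high in few cells, and 1 WT cell holds 37 *Il6* UMIs.

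A small number of WT cells outside the cluster carried the same set of transcripts. At least 3 of the 5 core transcripts were found in 10 of the other 7287 cells, all from the WT library, and 6 of these held all 5. By contrast, 80 cells held exactly 1 core transcript and 2 held exactly 2. The authors placed 5 of the 10 cells among M2-like R2 macrophages, 3 among other R2 macrophages, 1 among R1 macrophages, and 1 among pDCs. They held 264 UMIs of the 9 genes, or 13.05% of those of the WT library. When they were counted with the Basophil cells, the share of WT UMIs became 98.5% for *Ms4a2*, 96.8% for *Mcpt8*, 95.7% for *Fcer1a*, 95.2% for *Gata2*, and 85.7% each for *Cpa3* and *Il6*. It became 76.5% for *Cd200r3*, 46.9% for *Il4*, and 4.04% for *Il3ra*. The 10 cells were chosen by their core transcripts, so the rise for these 5 genes follows at least in part from the choice. Nothing was read from it.

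The 10 cells fell into 2 kinds by depth, a split made after their values were seen. In 7 cells there were 8811 to 44948 UMIs, 1.68 to 7.31 times the median of their own cluster, and the 9 genes were at 1404 CPM, compared with 7584 CPM in the WT Basophil cells. These 7 cells held *Cpa3* (22 UMIs), *Il6* (26 UMIs), and *Gata2* (39 UMIs) but no *Prss34*. In the other 3 cells, all M2-like R2, there were 1899, 1936, and 2950 UMIs, and the 9 genes were at 5306 CPM (3716 to 7345). These 3 cells each held *Prss34* (12 UMIs in all) and *Il4* (11 UMIs; 1621 CPM), and neither *Cpa3* nor *Il6* was detected. Over the 10 cells, *Lyz2* was at 9112 CPM, compared with 2489 CPM in the WT Basophil cells and 17201 CPM in the other 771 WT cells of the same clusters. It was uneven, with 836 of its 1542 UMIs in the cell of 44948 UMIs and 1 in the R1 cell. Markers of other lineages were found in some deep cells. The cell of 44948 UMIs held 151 B cell marker UMIs. An other R2 cell of 38104 UMIs held 86 of B cells and 50 of NK cells, and the pDC held 59 of NK cells. The R1 cell held 62 macrophage marker UMIs. No doublet caller was run, and whether these cells were doublets was not tested.

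**Figure D3:**
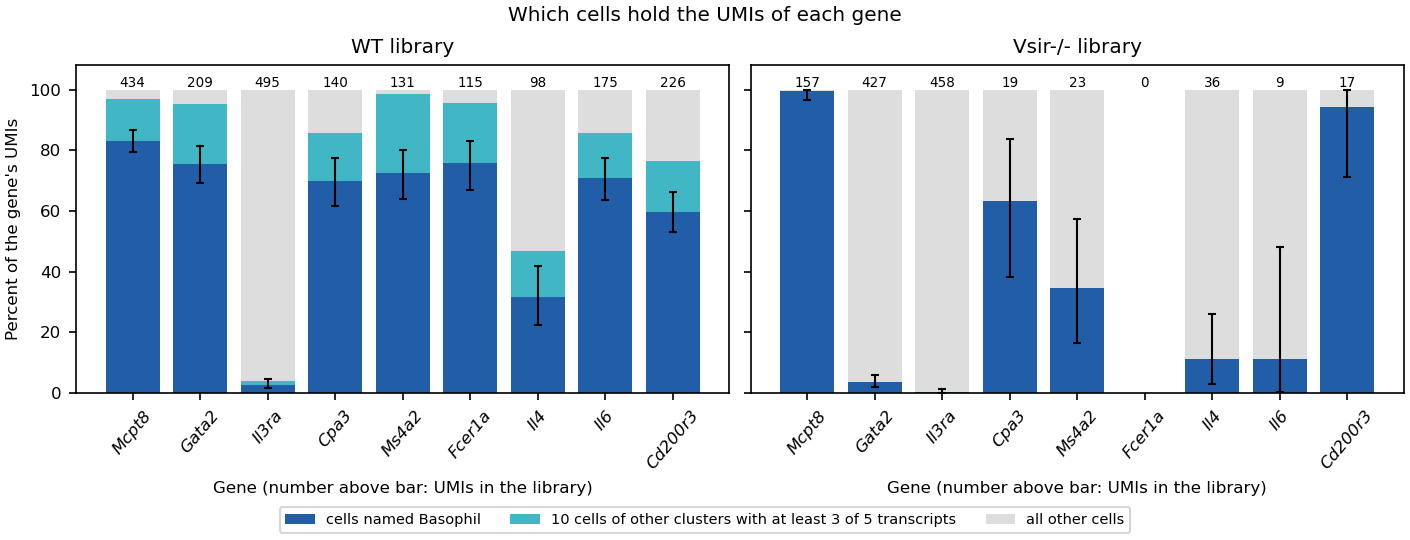
Share of the UMIs of each gene that lay in the Basophil cells (dark blue, with 95% Clopper-Pearson intervals), in the 10 other cells with at least 3 core transcripts (light blue), and in all remaining cells (gray), with the UMIs of the library above each bar. In the WT library, remaining cells make up most of the *Il3ra* and *Il4* UMIs only, and the *Vsir-/-* library had no *Fcer1a* UMI.

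A difference between *Vsir-/-* and WT mice could not be addressed in this cluster, because each genotype had 1 library. The values below describe 25 WT cells and 2 *Vsir-/-* cells. Their intervals leave out the variation between cells and between mice. Tubule markers were at 1210 CPM in these 2 cells and at 0 CPM in the WT Basophil cells, and their part in the ratios was not tested. Summed over the 9 genes, the level was 21584 CPM in the *Vsir-/-* Basophil cells and 7584 CPM in the WT Basophil cells, a ratio of 2.85 (2.45 to 3.30). This came mostly from *Mcpt8*, which was at 15734 CPM (13362 to 18406) and 2482 CPM, a ratio of 6.34 (5.22 to 7.67). The *Vsir-/-* cells had 8807 and 19942 CPM of *Mcpt8*, and both were above the highest WT cell, at 7202 CPM. Without the cell with the most *Mcpt8* UMIs, the log2 ratio of *Mcpt8* was 1.83 (1.27 to 2.34) in place of 2.66. *Il6* was lower in the sum, at 100.9 CPM (2.55 to 562) from 1 UMI, a ratio of 0.118 (0.00297 to 0.671). The *Vsir-/-* cells had 0 and 1 *Il6* UMIs, which lay within the WT range of 0 to 37 (median, 2). Without the cell with the most *Il6* UMIs, the log2 ratio of *Il6* was -2.62 (-7.94 to -0.103) in place of -3.08. *Fcer1a* was undetected, as given above. The ratios of the other genes had intervals that included 1, namely *Cpa3* (1.80; 0.897 to 3.28), *Cd200r3* (1.74; 0.966 to 2.93), *Gata2* (1.49; 0.829 to 2.49), *Ms4a2* (1.24), *Il4* (1.89; 0.485 to 5.35), and *Il3ra* (1.05; 0.0248 to 6.89).

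As a background, 9.56% of the 1140 features were at least 2-fold higher in the *Vsir-/-* Basophil cells and 10.8% were at least 2-fold lower, and 196 had no *Vsir-/-* UMI. Of the 8 members among these features, *Mcpt8* was at least 2-fold higher and *Il6* was at least 2-fold lower. *Fcer1a*, with 87 WT UMIs and 0 *Vsir-/-* UMIs, was not called lower because its 0 was set to 3 counts, which made it 1.98-fold lower. The same floor was used for each of the 196 features without a *Vsir-/-* UMI and so bears on the 10.8%. The ratio of observed variance to counting variance was largest for *Mcpt8* and *Il6* among the members. At the same relative variation this ratio rises with the mean count, as given above. In the WT Basophil cells, *Il6* had 124 UMIs and a ratio of 13.5. *Cd200r3* (135 UMIs) and *Gata2* (158 UMIs) had ratios of 4.49 and 2.84. The intervals, which cover counting error only, leave this variation out. Without the cell that held the most member UMIs, which was a *Vsir-/-* cell, the log2 ratio of the 9 genes was 0.69 in place of 1.51.

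**Figure D4:**
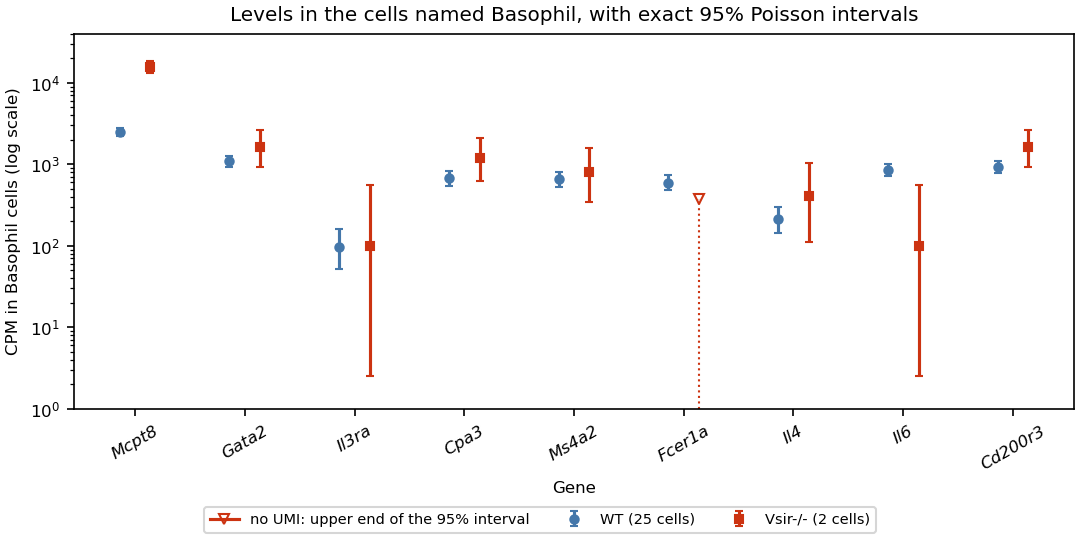
Levels of the 9 genes in CPM on a logarithmic axis in the Basophil cells of the WT library (blue circles, 25 cells) and the *Vsir-/-* library (red squares, 2 cells), with 95% Poisson intervals that cover counting error only; the triangle marks the upper end of the interval for *Fcer1a*, which had no *Vsir-/-* UMI. The intervals are apart for *Mcpt8*, *Fcer1a*, and *Il6* and overlap for the other 6 genes.

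Other genes of the same pathways were taken from lists and described in the Basophil cells of both libraries, as levels relative to all other cells. Of 17 genes that carry the FcεRI signal, 7 had at least 20 UMIs, and 1 of these was at least 4-fold higher. This was *Lat2*, a membrane adaptor, at 657 CPM (ratio, 11.9). *Fcer1g*, the γ chain that FcεRI shares with other Fc receptors, was at 2523 CPM (ratio, 2.36), and *Ptpn6*, the phosphatase SHP-1, was at 232 CPM (ratio, 1.30). The FcεRI chains *Fcer1a* and *Ms4a2* were thus far more restricted than the γ chain and most of the signaling genes around them, and the median log2 ratio of the list was 0.87.

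Of 13 genes of the IL-3 receptor family and STAT5, 7 had at least 20 UMIs, and 3 were at least 4-fold higher (median log2 ratio, 1.57). The genes of 2 β chains, *Csf2rb* and *Csf2rb2*, were more restricted than *Il3ra*. *Csf2rb2* was found in 20 of 27 cells at 219 CPM (ratio, 29.9; 20.4 to 42.5). *Csf2rb*, the β chain shared by the receptors for IL-3, IL-5, and GM-CSF, was found in 26 of 27 cells at 882 CPM (ratio, 17.4; 14.5 to 20.6), whereas *Il3ra* was found in 10 of 27 cells (ratio, 5.28; 2.94 to 8.75). The STAT5 target *Pim1* (ratio, 2.10), *Mcl1*, a survival factor of the BCL2 family (1.44), and *Jak1* (1.19) were below 4-fold. Of 16 receptors for alarmins and other ligands, 8 had at least 20 UMIs, and 4 were at least 4-fold higher (median, 1.77). The IL-18 receptor chains *Il18r1* (554 CPM; ratio, 14.1) and *Il18rap* (438 CPM; ratio, 7.08) were among them, and *Ccr2* (1.96) and *Il7r* (1.96) were not. Of 15 surface antigens, 5 of 10 were at least 4-fold higher (median, 1.52), including the tetraspanins *Cd63* (1474 CPM; ratio, 8.13) and *Cd9* (1339 CPM; ratio, 7.79) and the early activation antigen *Cd69* (1880 CPM; ratio, 5.74), whereas *Ly6e* was not (ratio, 1.43).

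Of 17 genes for granules and lipid mediators, 6 of the 8 with at least 20 UMIs were at least 4-fold higher (median log2 ratio, 3.97). Of the 16 genes of this list among the features, 5 had 0 UMIs in the 27 cells. *Hdc*, which makes histamine, was found in all 27 cells at 2800 CPM (ratio, 26.98), and *Alox5ap*, needed for leukotriene synthesis, was at 2176 CPM (ratio, 7.26). *Prss34* was at 2485 CPM with 22 UMIs in all other cells, and *Srgn*, the proteoglycan core protein of granules, was at 4171 CPM (ratio, 3.67). Of 18 cytokine and chemokine genes, 8 of the 10 with at least 20 UMIs were at least 4-fold higher (median, 5.16). Here too, 5 of the 16 genes among the features had 0 UMIs in the 27 cells. The chemokine genes *Ccl3* (2450 UMIs; 15771 CPM; ratio, 90.1) and *Ccl4* (2413 UMIs; 15533 CPM; ratio, 36.5) were found in all 27 cells, and *Ccl6* (5510 CPM; ratio, 27.05) and *Ccl9* (2684 CPM; ratio, 34.9) were also high.

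Of 19 transcription factor genes, 2 of 8 were at least 4-fold higher (median log2 ratio, 1.48). The genes with the most UMIs, *Cebpb* (ratio, 1.92), *Runx1* (3.995), *Spi1* (2.23), and *Lmo4* (2.45), were below 4-fold. The ratio of *Gata2* over both libraries was 124, but *Gata2* was a naming gene of the cluster, so nothing was read from this difference. *Mitf*, which is needed for mast cell development, and *Zfpm1*, a GATA cofactor, had 0 UMIs in the 27 cells. This allows up to 19.3 CPM each, and in all other cells *Mitf* was at 6.15 CPM and *Zfpm1* at 28.5 CPM. The 0 of *Mitf* therefore does not set these cells apart from the others. Of 14 genes of activation and immediate early response, 6 of 13 were at least 4-fold higher (median, 1.97). Among them were the naming gene *Ier3* (2749 CPM; ratio, 30.1), *Egr1* (2955 CPM; ratio, 18.0), and *Ier2* (2646 CPM; ratio, 7.95), and *Junb* (ratio, 3.08) was below. Such genes also respond to tissue digestion, whose part was not tested. The lists and the share of 13.4% for all features rest on the same filter, and the lists were not tested against it. Genes high in the Basophil cells are those that can pass this filter, so the counts and medians leave out genes that were low or absent there.

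**Figure D5:**
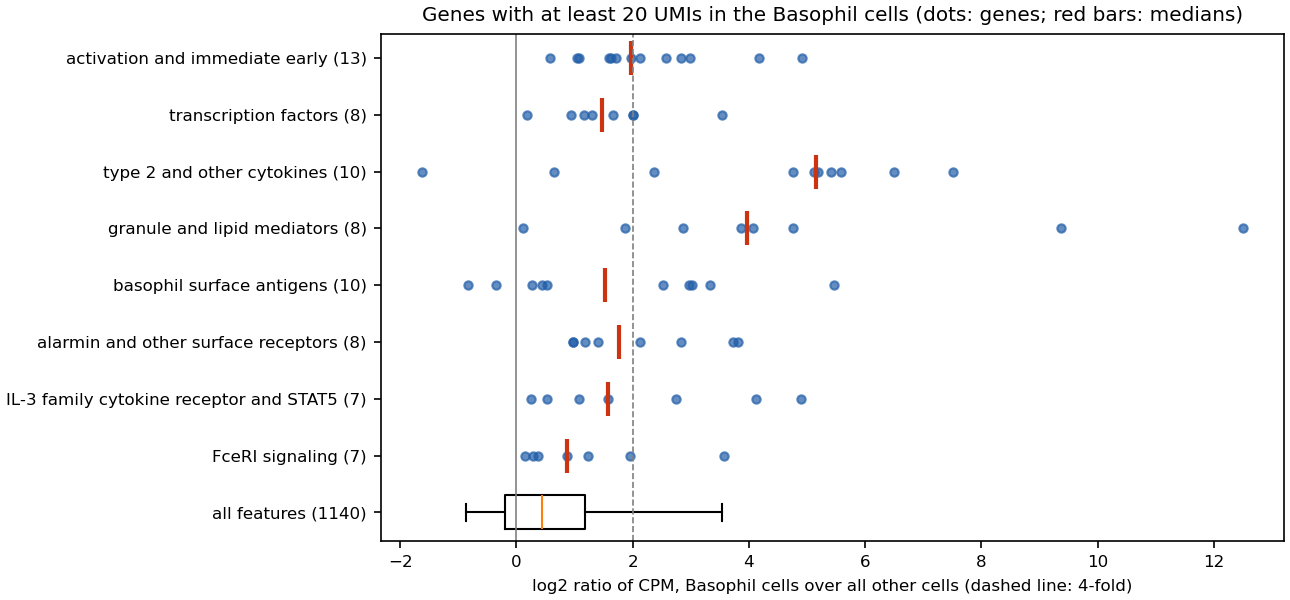
Log2 ratio of CPM in the Basophil cells of both libraries over all other cells for genes of each list with at least 20 UMIs in the Basophil cells (blue dots; red bars, medians; number of genes in brackets), with a box for all 1140 such features (box, quartiles; line, median; whiskers, 5th to 95th percentile). The median of all features is 0.44, the medians of the receptor, signaling, and transcription factor lists lie between 0.87 and 1.77, that of the activation list is 1.97, and those of the mediator and cytokine lists are 3.97 and 5.16.

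The genes whose pattern over the 16 clusters was most like that of the members were found by the share of the CPM summed over clusters that fell in the Basophil cluster. This share was 99.4% for *Mcpt8*, 98.3% for *Fcer1a*, 97.8% for *Ms4a2*, 97.5% for *Cd200r3*, 97.0% for *Il6*, 93.1% for *Cpa3*, 92.8% for *Gata2*, 78.9% for *Il4*, and 27.2% for *Il3ra*. Among features with at least 20 UMIs in the Basophil cells, the 10 other features with the largest share were *Prss34* (99.8%), *Csrp3* (98.3%), *Grm6* (97.8%), *Cyp11a1* (97.6%), *Alox15* (97.1%), *Hgf* (89.9%), *Ccl3* (84.4%), *Itga2b* (84.1%), *Fosl1* (82.7%), and *Aqp9* (82.2%). *Cyp11a1*, the enzyme that starts steroid synthesis from cholesterol, had 161 UMIs in the Basophil cells and 75 in all others, and *Csrp3*, a muscle LIM protein gene, had 89 and 28. *Hgf*, which encodes hepatocyte growth factor, had 73 and 156. The likeness is a description of the same cells that defined the cluster.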

How the data were processed

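Kidney cells of 1 WT and 1 *Vsir-/-* library were profiled by 3′ scRNA sequencing. The submitters' processing notes name Cell Ranger (version 3.1.0), R (version 4.0.3), Seurat (version 3.2.3), and the build mm9. The authors filtered genes and cells, merged the libraries, and named the clusters. The deposited matrix holds raw UMI counts, and a deposited table assigns each cell a library, a cluster, and a mitochondrial percent. The members, lists, and rules were chosen with earlier results of these data known.

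UMIs were summed by cluster and library and divided by all UMIs of the same cells. Poisson, Clopper-Pearson, and exact conditional intervals are at the 95% level, and a count of 0 was taken to allow 3 counts. With 1 library per genotype no test was made. The genes named are all 9 members, the 4 genes of each list with the most UMIs in Basophil cells, markers at 0, and the 10 features most like the members; some genes that this rule names are not reported here. *Lyz2*, *Vsir*, *Ptprc*, *Cxcr2*, *Csf2rb2*, *Mitf*, *Zfpm1*, *Il13*, *Ctsg*, *Slc18a2*, and *Ccr3* were named outside this rule after their values were seen. Doublets were not removed. Thinned cells were drawn to 1000 UMIs with a fixed seed, and cells with fewer UMIs were left out of the thinned values. Of the feature symbols, 97.8% were in GENCODE vM21, and all 9 members had RefSeq promoters. *Il3ra* overlaps an antisense gene outside the features, and whether the counting used strand is not stated. The 4-fold call and the Poisson interval were tested on simulated Poisson counts, which lack the variation between cells seen here. The other steps were not tested on simulated counts. The software was Python 3.11.15, numpy 2.4.6, pandas 2.3.3, scipy 1.17.1, and matplotlib 3.10.9.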

Additional observations from a re-analysis of the deposited data

How the results depend on the processing

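The share of the UMIs of the 9 genes in the Basophil cells was 41.6%, and it moved beyond its counting interval to 38.3% without the cell with the most member UMIs, 57.2% after thinning to 1000 UMIs, 49.9% with the 10 cells outside the cluster, and 36.9% without 4 Basophil cells that were deeper than 10000 UMIs or had at least 10 *Lyz2* UMIs. The level of 8478 CPM moved to 7702, 4871, and 9950 CPM without the top cell, with the 10 cells, and without the 4 cells. The log2 ratio of *Vsir-/-* over WT moved from 1.51 to 0.69 without the top cell. The number of features at least 4-fold higher in the Basophil cells moved from 153 of 1140 (13.4%) to 673 of 8906 (7.56%) with no filter on UMIs. It moved to 14 of 95 (14.7%) in the *Vsir-/-* library alone, where the share was close to the main one. The alternatives with the 10 cells and without the 4 cells were chosen after the data were seen. The share of cells in the cluster stayed within its interval under each alternative run for it. Cells with at least 3 of the 5 core transcripts, in any cluster, were 0.640% of the WT library (0.446% to 0.889%). They were 0.108% of the *Vsir-/-* library (0.0131% to 0.391%), and these 2 intervals did not overlap. For single members, 39 of 40 log2 ratios, 37 of 54 levels, and 26 of 45 shares stayed within their counting interval. Only the removal of the top cell for *Mcpt8* took out a *Vsir-/-* cell, and that log2 ratio was the one that moved. The other alternatives kept both *Vsir-/-* cells and many of the intervals were wide, so the count of log2 ratios that stayed does not show that they are stable. No log2 ratio whose interval excluded equal levels changed sign. Those of *Ms4a2* (0.30) and *Il3ra* (0.067), whose intervals were wide, became -0.024 and -0.27 without the 4 cells. With each cell weighted equally they became -0.17 and -0.21. By correlation with *Mcpt8* in place of the share, 6 of the 10 most similar genes were kept. The 2 *Vsir-/-* cells (9915 UMIs) limit every value for that genotype. No paired analysis was possible because each genotype has 1 library, and for the same reason no replicate could be left out.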

Other observations

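A few further genes of low count differed in how they were spread over the 27 Basophil cells. *Il13*, a type 2 cytokine gene, had 26 UMIs in 6 WT cells, and 17 of them were in a single cell, whereas *Il4* was found in 15 of the 25 WT cells. *Ctsg*, which encodes the neutral protease cathepsin G, had 14 UMIs in 4 cells, 6 of them in the *Vsir-/-* cell that also held 237 *Prss34* UMIs. *Slc18a2*, which encodes a vesicular monoamine transporter, had 13 UMIs in 10 cells. *Ccr3*, the eotaxin receptor gene, had 7 UMIs in 5 Basophil cells and 15 UMIs in all other cells. These genes were chosen after their values were seen.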
